A study of Homo sapiens with 6 samples.

Results

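The transcripts of 45 human genes for ribosome biogenesis were followed in EA.hy926 cells with and without low oxygen. The genes encode RNA polymerase I (Pol I) subunits and factors, small nucleolar ribonucleoprotein (snoRNP) components, and the proteins that process pre-ribosomal RNA and assemble both ribosomal subunits. The list is defined by gene names and functions, with no threshold on measured values. All 45 were found by symbol among the 22153 genes of the table, and 43 of them passed the filter on low values and were tested beside 10246 genes in all. EA.hy926 is a hybrid line, derived from human umbilical vein endothelium fused to A549 lung carcinoma cells. The groups were 3 libraries of cells in normoxia (20% O2) and 3 libraries of cells in hypoxia (1% O2 for 8 h), all from polyadenylated RNA of the same line, and the labels do not say whether libraries of a group came from separate cultures. P-values therefore measure only the spread between these libraries, which may be technical.

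Ribosome production begins in the nucleolus, where Pol I transcribes the long precursor of the 18S, 28S and smaller large-subunit ribosomal RNAs. Guide-RNA particles modify that precursor, the small subunit processome and its partners fold and cut it, and other factors build the large subunit before export. The process consumes much of the energy and nucleotides of a growing cell, and its genes are known targets of the transcription factor MYC, which binds the E-box. Ribosomal RNA itself carries no poly(A) tail, so its synthesis was not measured here.

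The libraries held between 17226736 and 18652704 reads assigned to genes. Values are reads divided by 1 size factor per library, as deposited, and are called scaled reads below. Mitochondrially encoded mRNA took 1.69% to 4.83% of reads. Of 12 endothelial markers, 11 had a mean of at least 1 FPKM, a level scaled to exon length and library depth, among them PECAM1 and CDH5, while CLDN5 was near 0. The epithelial markers KRT8 and KRT18 were also expressed, while KRT19 (0.22 FPKM) and EPCAM (0.16 FPKM) were near 0. Summed scaled reads of the epithelial markers came almost wholly from KRT8 and KRT18. The sums were 31717, 30386 and 42693 in normoxia replicates 1 to 3 and 42665, 26066 and 33565 in hypoxia replicates 1 to 3. The fibroblast markers COL1A1, COL1A2 and PDGFRB and the leukocyte marker CD68 stayed below 1 FPKM and LYZ was above it, while CDH1, DCN, LUM, PTPRC and CD3E were not analysed here. The summed scaled reads of the endothelial markers were 118749, 107039 and 67096 in normoxia replicates 1 to 3 and 71252, 150026 and 99499 in hypoxia replicates 1 to 3. By these sums, normoxia replicate 3 and hypoxia replicate 1 stood low for the endothelial markers and high for the epithelial markers. Both also stood high for many of the nucleolar genes below. Not every marker followed its list: among hypoxia libraries KRT18 was highest in replicate 3, and among normoxia libraries TEK was lowest in replicate 1. All libraries were of the same hybrid line, so these markers need not come from separate cells. In bulk RNA, fewer cells expressing a marker and less of its RNA per cell cannot be told apart.

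None of the 43 genes tested passed the test for a difference between hypoxia and normoxia. With limma on log2(FPKM + 0.1) and Benjamini-Hochberg adjustment over all genes tested, 0 of 43 passed an adjusted p of 0.05, beside 0.0976% of all genes, 10 in number, which included the glycolytic and HIF-related genes PGK1, LDHA, SLC2A1 and BNIP3. Neither edgeR (0.0976% of all genes called) nor DESeq2 (0.402%) on the recovered reads called any of the 45 that it tested. At an unadjusted p under 0.05 there was 1 gene, PPAN, beside 2.68% of all genes. At that unadjusted level there were 0 genes by edgeR, beside 2.45% of all genes, and 0 by DESeq2, beside 2.39%.

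The count of 0 held in the other limma settings. Other pseudocounts called 0.117% (pseudocount 1) and 0.0878% (0.01) of all genes, other filters 0.0181% (none) and 0.194% (5 FPKM), TMM scaling 0.107%, removal of GC trends 0.244% and a replicate block 0.185%. Leaving out normoxia replicates 1, 2 and 3 in turn called 0.0397%, 0.0498% and 0.24%, and leaving out hypoxia replicates 1, 2 and 3 called 0.02%, 0.0299% and 0.01%. Of the 45 genes, none that these fits tested was called in any of them. At an unadjusted p under 0.05 without normoxia replicate 3 there was 1 gene of the 43, beside 5.51% of all genes.

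Fold differences were small with all libraries kept. The ratio of the hypoxia mean to the normoxia mean ran from 0.642 for LTV1 to 1.55 for PPAN. These were the only 2 of the 43 that differed by 1.5-fold or more in either direction, and the share of all genes at that size is not reported here. Without normoxia replicate 3 the ratio was 0.573 for POLR1A, 1.86 for NPM1, 1.60 for GNL3, 1.56 for DDX21 and 1.52 for PPAN. For LTV1 it was then 1.16.

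Small differences leaned downward. The log2 fold change was negative for 27 of 43 genes, beside 49.4% of all genes, and its median was -0.10, beside 0.00 over all genes tested. That lean rested on single libraries. Without normoxia replicate 3 the median was 0.01, with 21 of 43 negative beside 49.9% of all genes, and without hypoxia replicate 2 it was 0.07. Without hypoxia replicate 1 it was -0.32. The sign of the log2 fold change turned for 12 of the 43 genes when normoxia replicate 3 was left out.

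The precision of the comparison sets what can be said of an absent difference. The 95% interval of the log2 fold change had a median half-width of 0.67. For 25 of 43 genes the whole interval lay within a 2-fold change in either direction, beside 58.4% of all genes. For the other 18 the interval reached a 2-fold change, so 3 libraries a group do not show that they were unaltered. The difference between the group means was larger than both SDs for 7 of 43 genes (16.3%), beside 14.7% of all genes.

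**Figure D1:**
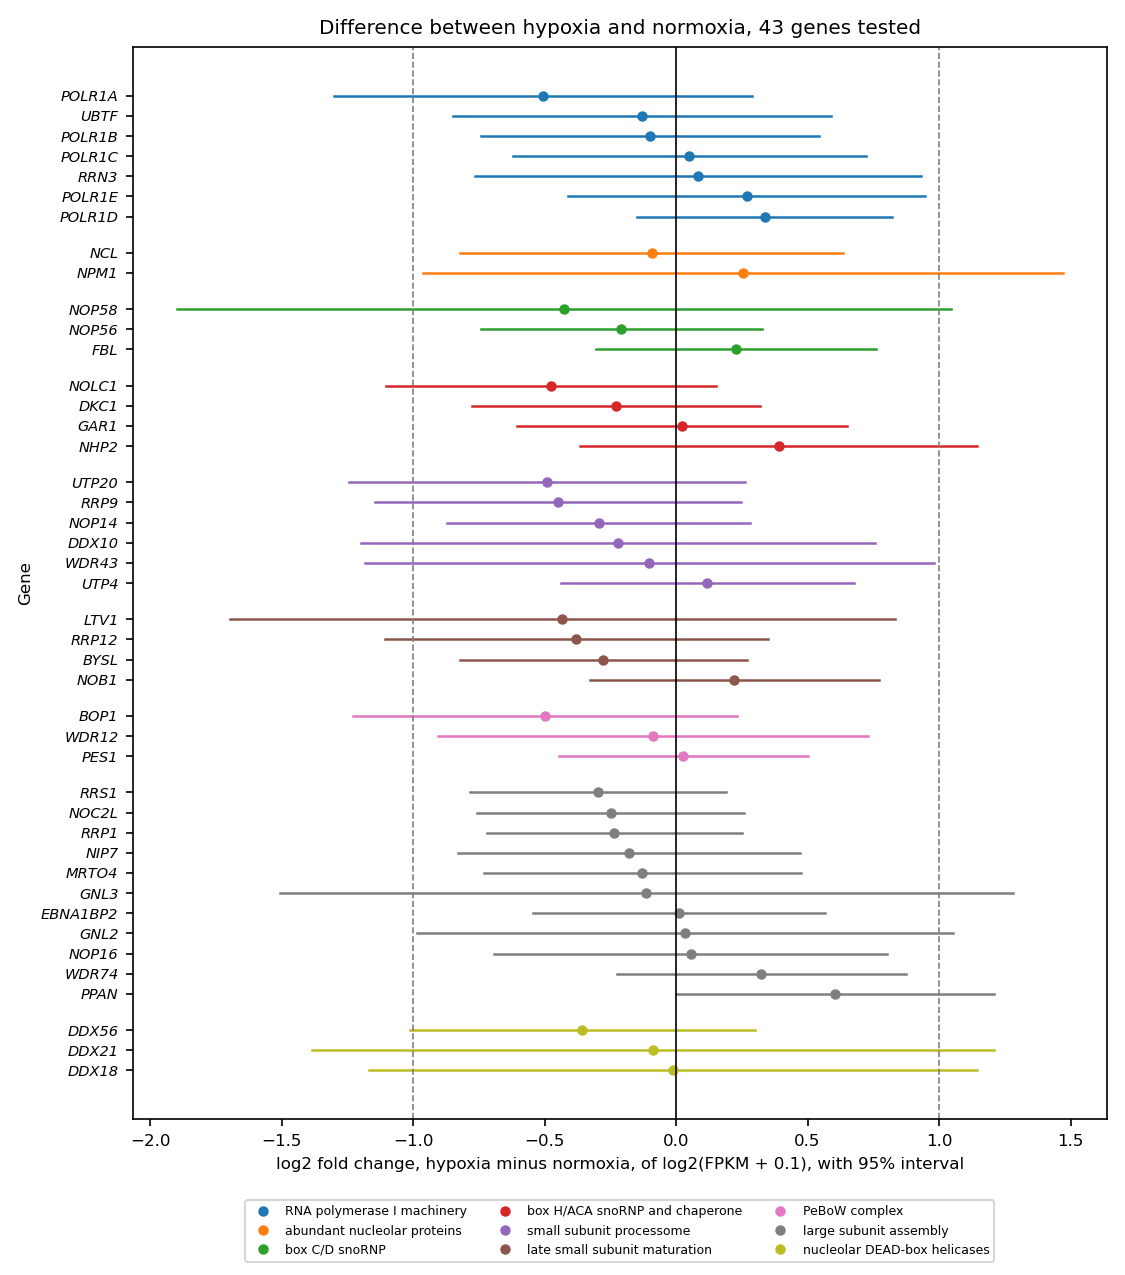
Log2 fold change of each of the 43 genes tested, hypoxia minus normoxia, with its 95% interval (lines) from limma, grouped and coloured by role; dashed lines mark a 2-fold change. Every interval except that of PPAN spans 0, and the widest belong to NOP58, GNL3, DDX21, LTV1 and NPM1.

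The Pol I machinery had 3 of 7 genes negative and a median log2 fold change of 0.05, which ran from -0.14 without hypoxia replicate 1 to 0.19 without hypoxia replicate 2. POLR1A (ENSG00000068654, chr2:86020216-86106155, minus strand, GENCODE release 29 on GRCh38) encodes the largest subunit of the enzyme. It stood at 2381, 1620.3 and 1072 scaled reads in normoxia and at 938, 1489 and 1014 in hypoxia. Normoxia replicate 1 was the highest and the groups overlapped. The ratio of means was 0.678 and the log2 fold change -0.51 (95% interval -1.30 to 0.29, limma adjusted p = 1.00). Without normoxia replicate 3 the log2 fold change of POLR1A was further from 0, at -0.79.

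POLR1B, the second largest subunit, was at 398, 397 and 421 in normoxia and at 515, 296 and 353 in hypoxia. Its normoxia libraries were close together and fell inside the range of the hypoxia libraries. Its log2 fold change was -0.10 (95% interval -0.74 to 0.54). POLR1D (ENSG00000186184), a small subunit shared with Pol III, is annotated at chr13:27620742-27744237 on the plus strand. It was at 1177, 1289 and 1362 in normoxia and at 1665, 1655 and 1523 in hypoxia. All 3 hypoxia libraries lay above all 3 normoxia libraries, with means of 1614 ± 79.2 and 1276 ± 93.2 (SD, n = 3). The ratio was 1.27 and the log2 fold change 0.34 (95% interval -0.15 to 0.82, limma adjusted p = 1.00). It kept its sign in all 15 other settings, from 0.28 to 0.38, and the lowest adjusted p among them was 0.834.

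RRN3 (TIF-IA), the factor that joins Pol I to its promoter and carries growth signals to it, was at 360.1, 409 and 747 in normoxia and at 709, 356 and 519 in hypoxia. Its groups overlapped across nearly their whole range, with a log2 fold change of 0.08 (95% interval -0.77 to 0.93). Pseudogene copies of RRN3 in the table held 27.4% as many reads as RRN3, so its count is uncertain. UBTF, the HMG-box protein that keeps ribosomal DNA open, was at 2809, 2508 and 1504 in normoxia and at 1536, 2586 and 2037 in hypoxia. The low values were in normoxia replicate 3 and hypoxia replicate 1, opposite to RRN3. Its log2 fold change was -0.13 (95% interval -0.85 to 0.59). POLR1C and POLR1E, the other subunits, had log2 fold changes of 0.05 and 0.27, with overlapping groups.

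For the abundant nucleolar proteins the group means lay closer together than the SD of either group. NPM1 (nucleophosmin), a histone and ribosome chaperone, was the most abundant of the 45 per length of exon, at a mean of 194 FPKM. Its gene (ENSG00000181163) lies at chr5:171387116-171411137 on the plus strand. It stood at 6344, 8535 and 22778 scaled reads in normoxia and at 19852, 7331 and 14357 in hypoxia. Normoxia replicate 3 and hypoxia replicate 1 were the 2 highest libraries, and the means were 12552 ± 8923 and 13847 ± 6276 (SD, n = 3). The log2 fold change was 0.25 (95% interval -0.96 to 1.47), and it was 0.80 without normoxia replicate 3 and -0.13 without normoxia replicate 1. Pseudogene copies of NPM1 in the table held 3.26% as many reads as NPM1.

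NCL (nucleolin), an RNA-binding protein of early pre-ribosomes, was at 3408, 4492 and 7379 in normoxia and at 5165, 3553 and 5075 in hypoxia. The highest library was again normoxia replicate 3, and the log2 fold change was -0.09 (95% interval -0.82 to 0.64).

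The core proteins of the modification particles also overlapped between the groups. For the 3 box C/D proteins the median log2 fold change was -0.21 with all libraries and 0.22 without normoxia replicate 3. FBL (fibrillarin), the methyltransferase of box C/D snoRNPs, was at 4860.3, 4382 and 6151 in normoxia and at 7339.5, 4966 and 5763 in hypoxia. Its level per length, 144 FPKM, was second to that of NPM1. Its log2 fold change was 0.23 (95% interval -0.31 to 0.76). NOP58, its partner in the same particle, was at 277, 383 and 1255 in normoxia and at 722, 195 and 386 in hypoxia. One library, normoxia replicate 3, held the high value, and the log2 fold change of -0.43 (95% interval -1.90 to 1.05) became 0.22 without it. NOP56, the third protein of the particle, had a log2 fold change of -0.21 (95% interval -0.74 to 0.33).

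Box H/ACA snoRNPs guide pseudouridine formation. Among their proteins, NHP2 was at 1605, 1318 and 692 in normoxia and at 1778, 1293 and 1435 in hypoxia. Normoxia replicate 3 was lowest here. The log2 fold change was 0.39 (95% interval -0.37 to 1.14), and 27.4% of the exon bases of NHP2 are shared with RMND5B on the opposite strand. Without normoxia replicate 3 the log2 fold change of NHP2 was 0.034. The pseudouridine synthase DKC1 and the core protein GAR1 had log2 fold changes of -0.23 and 0.02. NOLC1 (Nopp140), a chaperone of snoRNPs, was at 825, 918 and 1401 in normoxia and at 877, 638 and 698 in hypoxia. Hypoxia replicates 2 and 3 lay below all other libraries and hypoxia replicate 1 did not. The means were 1048 ± 309 and 738 ± 125, a ratio of 0.704, with a log2 fold change of -0.48 (95% interval -1.10 to 0.15, limma adjusted p = 1.00).

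The small subunit processome, the particle that folds and cleaves the 18S part of the precursor, had 5 of 6 tested genes below 0 and a median log2 fold change of -0.26. Without normoxia replicate 3 there were 3 of 6 below 0 and the median was -0.03. UTP20, a long scaffold protein, was at 238, 321 and 481 in normoxia and at 251, 213 and 234 in hypoxia. The lowest normoxia library, replicate 1, was below hypoxia replicate 1, and the log2 fold change was -0.49 (95% interval -1.24 to 0.26). RRP9, the U3 snoRNP protein, was at 1133, 928 and 1514 in normoxia and at 1236, 782 and 645 in hypoxia. Its groups overlapped through hypoxia replicate 1, and the log2 fold change was -0.45 (95% interval -1.14 to 0.25). NOP14, DDX10, WDR43 and UTP4 ran from -0.30 to 0.12. UTP15 did not pass the filter on low values, with 77.3, 103 and 233 scaled reads in normoxia and 166, 60.1 and 105 in hypoxia.

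Factors of late small subunit maturation had 3 of 4 genes below 0 and a median of -0.33, and without normoxia replicate 3 there were 2 of 4 and the median was -0.08. RRP12, an export factor, was at 1363, 843 and 1294 in normoxia and at 1035, 1059.8 and 608 in hypoxia, and normoxia replicate 2 lay inside the hypoxia range. The log2 fold change was -0.38 (95% interval -1.11 to 0.35). LTV1, an assembly factor of the small subunit, was at 53.0, 78.6 and 225 in normoxia and at 109.9, 46.7 and 72.2 in hypoxia. Normoxia replicate 3 held the high value, and the log2 fold change of -0.43 (95% interval -1.70 to 0.83) became 0.15 without that library. LTV1 shares 27.7% of its exon bases with AL049844.3 on the same strand. The endonuclease NOB1, which makes the final cut of 18S, and the assembly factor BYSL had log2 fold changes of 0.22 and -0.28.

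The promoters of these genes were searched for the E-box CACGTG, a hexamer that reads the same on both strands and is bound by MYC with MAX, and for ACGTG, a core found in HIF binding sites. RefSeq promoters (GRCh38.p14) of 300 bases, from 250 before the start to 50 after it, were found for 38 of the 45 genes. CACGTG was present in 13 of 38 (34.2%), beside 7.43% of 27305 promoters of all genes and 10.7% of 7857 promoters of genes tested. ACGTG outside an E-box, on either strand, was present in 7 of 38 (18.4%), beside 15.5% of all promoters and 19.6% of those of genes tested. The median GC content of the promoters was 64.2% for the 38 genes and 65.7% for genes tested.

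Tested genes with an E-box, 12 in number, had a median log2 fold change of -0.12, with 7 negative, and the 24 without had -0.09, with 14 negative. The 3 promoters below are shown because they hold the E-box and belong to the genes with the largest differences among those described above. Capitals mark CACGTG, which lies 10 bases before the start in UTP20, 5 before it in RRP9 and 28 after it in LTV1. A match is a description of letters, not evidence of binding. UTP20 is at chr12:101279855-101280154 on the plus strand, RRP9 at chr3:51941855-51942154 on the minus strand and LTV1 at chr6:143843088-143843387 on the plus strand.
UTP20: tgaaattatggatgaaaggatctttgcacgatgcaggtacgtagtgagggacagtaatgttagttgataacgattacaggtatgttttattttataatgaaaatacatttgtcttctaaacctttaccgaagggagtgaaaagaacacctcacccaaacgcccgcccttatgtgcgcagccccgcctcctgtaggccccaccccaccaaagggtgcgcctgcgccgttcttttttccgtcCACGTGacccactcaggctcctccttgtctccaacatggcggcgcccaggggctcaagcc
RRP9: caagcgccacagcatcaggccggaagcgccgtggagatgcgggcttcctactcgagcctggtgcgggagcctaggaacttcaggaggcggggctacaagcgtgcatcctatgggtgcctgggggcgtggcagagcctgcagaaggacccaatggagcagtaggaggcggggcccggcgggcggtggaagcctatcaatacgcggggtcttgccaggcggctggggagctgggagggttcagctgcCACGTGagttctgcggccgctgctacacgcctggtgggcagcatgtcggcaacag
LTV1: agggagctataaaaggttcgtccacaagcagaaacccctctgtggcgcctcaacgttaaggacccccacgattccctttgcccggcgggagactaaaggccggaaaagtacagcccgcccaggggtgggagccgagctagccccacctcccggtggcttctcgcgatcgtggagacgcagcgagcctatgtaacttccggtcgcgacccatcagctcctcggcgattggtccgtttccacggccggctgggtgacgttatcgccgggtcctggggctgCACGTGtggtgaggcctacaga

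The PeBoW complex of PES1, BOP1 and WDR12 is needed for processing of the large subunit RNA. Its median log2 fold change was -0.09, and it ran from -0.33 without hypoxia replicate 1 to -0.01 without hypoxia replicate 2. BOP1 was at 4454, 2972 and 5577 in normoxia and at 4156, 2814 and 2233 in hypoxia. Hypoxia replicates 2 and 3 were lowest and hypoxia replicate 1 lay among the normoxia libraries. For BOP1 the log2 fold change was -0.50 (95% interval -1.23 to 0.23), with the same sign in all 15 other settings. WDR12 was at 326, 418 and 576 in normoxia and at 566, 275 and 415 in hypoxia, a log2 fold change of -0.09 (95% interval -0.91 to 0.73). PES1 had a log2 fold change of 0.03 (95% interval -0.45 to 0.50), the narrowest interval of the 43.

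Of 11 tested large subunit factors, 6 were below 0, with a median of -0.11, and without hypoxia replicate 2 there were 3 and the median was 0.17. PPAN, a nucleolar protein of large subunit assembly, was the gene nearest to the threshold. It stood at 115, 92.8 and 98.7 scaled reads in normoxia and at 129.6, 177 and 169 in hypoxia. All hypoxia libraries lay above all normoxia libraries, with means of 159 ± 25.5 and 102 ± 11.7 (SD, n = 3). The ratio was 1.55 and the log2 fold change 0.60 (95% interval 0.00 to 1.21, unadjusted p = 0.0498 and adjusted p = 1.00 by limma).

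PPAN (ENSG00000130810) lies on the plus strand at chr19:10106289-10111634 in GENCODE release 29 (GRCh38). It shares 56.0% of its exon bases with the read-through gene PPAN-P2RY11 on the same strand and 3.76% with the purinergic receptor gene P2RY11. P2RY11 stood at 68.8, 65.3 and 27.3 in normoxia and at 64.3, 139.99 and 113 in hypoxia. The labels do not state how reads in shared exons were assigned, and reads of PPAN and its neighbours cannot be fully told apart. PPAN and POLR1D were the only 2 of the 43 genes (4.65%) whose groups did not overlap, beside 7.48% of all genes, and both were higher in hypoxia, beside 4.76% of all genes.

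WDR74, a large subunit factor released from pre-ribosomes by the ATPase NVL, was at 1019.9, 891 and 749 in normoxia and at 1362, 974 and 1010.5 in hypoxia. Hypoxia replicate 1 was the highest library, and the groups overlapped at their edges, with a log2 fold change of 0.32 (95% interval -0.23 to 0.87). The GTPases GNL2 and GNL3 had log2 fold changes of 0.03 and -0.11, and RRS1, NOC2L, RRP1, NIP7, MRTO4, EBNA1BP2 and NOP16 ran from -0.30 to 0.05.

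NOP2, a cytosine methyltransferase of 28S ribosomal RNA, could not be assessed. It was listed at 4.24, 1.89 and 0 scaled reads in normoxia and at 1.04, 1.04 and 2.85 in hypoxia, far below its partners. In GENCODE release 29, 54.4% of its exon bases are shared with the gene AC006064.6 on the same strand, and the effect of that overlap on the count was not tested.

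The DEAD-box helicases, which unwind pre-ribosomal RNA, had 3 of 3 genes below 0 and a median log2 fold change of -0.09. Without normoxia replicate 3 there was 1 of 3 below 0 and the median was 0.44, and with GC trends removed there were 2 of 3. DDX21 (ENSG00000165732), at chr10:68956128-68985073 on the plus strand, was at 471, 594 and 2251 in normoxia and at 1069, 602 and 817 in hypoxia, with the high value in normoxia replicate 3. Its log2 fold change of -0.09 (95% interval -1.38 to 1.21) became 0.60 without that library. DDX56 was at 2472, 2023 and 3689 in normoxia and at 2658, 1830.2 and 1803 in hypoxia, a log2 fold change of -0.36 (95% interval -1.01 to 0.30). DDX18 had a log2 fold change of -0.01.

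**Figure D2:**
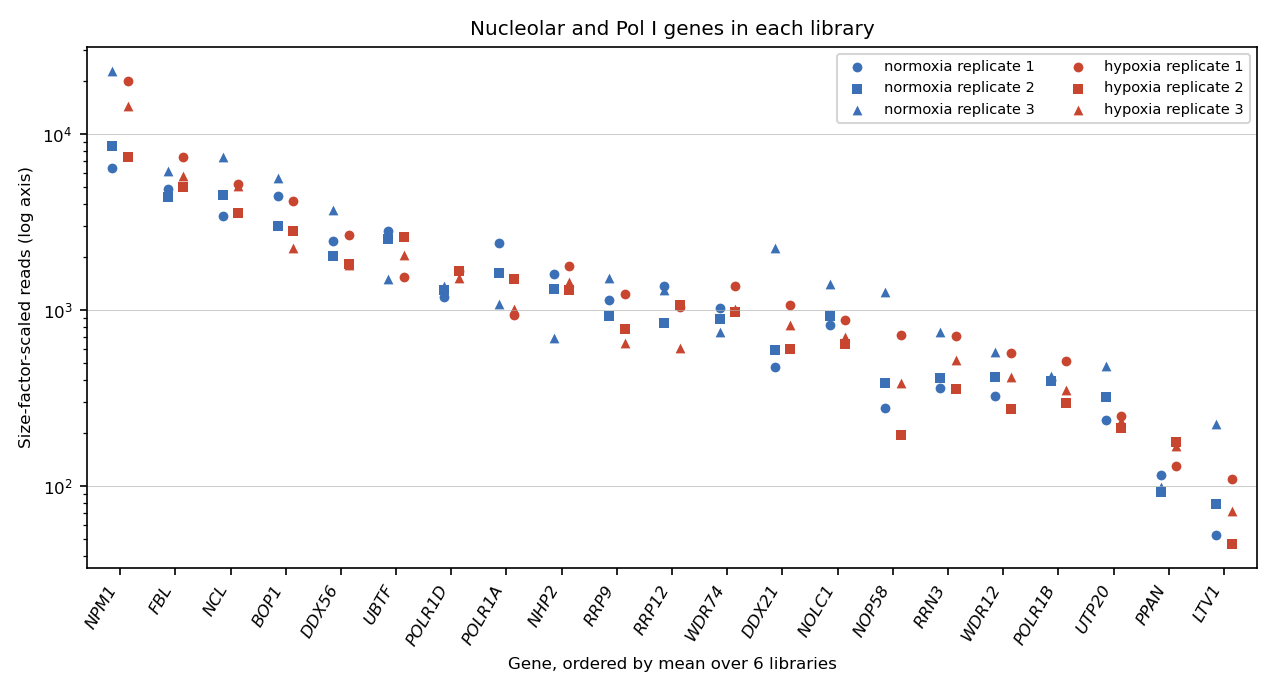
Scaled reads of 21 of the genes in each library (log axis), normoxia in blue and hypoxia in red, with a symbol for each replicate. The normoxia and hypoxia points overlap for every gene except POLR1D and PPAN, and normoxia replicate 3 (blue triangle) stands high for NPM1, DDX21, NOP58 and LTV1.

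Libraries of the same group differed by 2-fold or more for some of these genes. The highest normoxia library was at least 2-fold above the lowest for 14 of 43 genes (32.6%), beside 32.3% of all genes. In hypoxia this was so for 7 genes (16.3%), beside 23.2% of all genes. Normoxia replicate 3 was at least 2-fold above the mean of the other two normoxia libraries for 9 genes (20.9%), beside 14.5% of all genes. These were GNL3 (4.26-fold), DDX21 (4.23-fold), NOP58 (3.80-fold), LTV1 (3.42-fold), NPM1 (3.06-fold), GNL2, WDR43, DDX18 and DDX10. They were listed after their values were seen.

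The library pattern moved in part with base composition. The 9 genes had a GC content of 40.2% to 43.8% in their longest transcript, while the median over all genes tested was 49.5%. Over all genes tested, the deviation of a gene from its mean over 6 libraries changed per 10 points of GC by 0.33, 0.08 and -0.40 (log2) in normoxia replicates 1 to 3 and by -0.15, 0.25 and -0.12 in hypoxia replicates 1 to 3. Normoxia replicate 3 and hypoxia replicates 1 and 3 thus ran towards AT-rich transcripts, and normoxia replicates 1 and 2 and hypoxia replicate 2 towards GC-rich ones.

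Among the 22 nucleolar and Pol I genes below the median GC, normoxia replicate 3 was the highest normoxia library for 20 (90.9%), beside 63.8% of all genes below it. Hypoxia replicate 2 was the lowest hypoxia library for 20 of these 22, beside 59.9%, and hypoxia replicate 1 the highest for 21 (95.5%), beside 44.1%. Among the 21 genes at or above the median GC, normoxia replicate 3 was highest for 5 (23.8%), beside 16.0% of all genes there. Hypoxia replicate 1 was the highest hypoxia library for 15 of these 21 (71.4%), beside 25.6%, and hypoxia replicate 2 the lowest for 6 (28.6%), beside 21.9%. Hypoxia replicate 1 thus stood high on both sides of the median GC.

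With the GC trend of each library removed, the median of the log2 fold change over the 43 genes was -0.08, with 26 negative, and 1 gene turned its sign. After that step the 43 genes had median deviations of 0.00, -0.06 and 0.21 for normoxia replicates 1 to 3, and of 0.27, -0.24 and -0.14 for hypoxia replicates 1 to 3. The medians over all genes tested were 0.09, 0.04 and -0.17 for normoxia and 0.01, 0.07 and 0.01 for hypoxia. By these medians, normoxia replicate 3 and hypoxia replicate 1 still stood high for the 43 genes once the trend was removed. Not every gene followed. The Pol I machinery genes all lay below 0 in normoxia replicate 3, among them POLR1E (-0.53) and UBTF (-0.38), and so did NHP2 (-0.81). In hypoxia replicate 1, POLR1A (-0.47), UBTF (-0.37) and UTP20 (-0.26) lay below 0. The part of the endothelial marker level, which ran the other way across the libraries, was not tested.

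**Figure D3:**
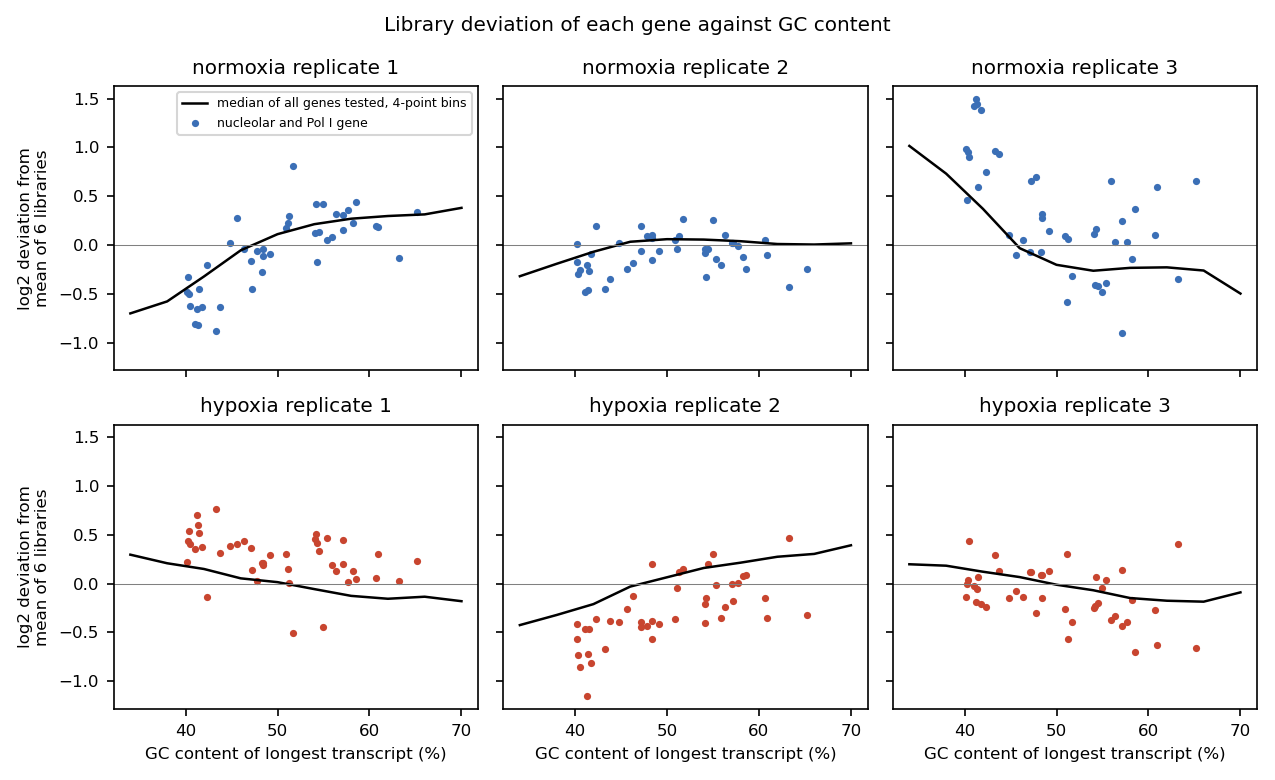
Deviation of each of the 43 genes from its mean over 6 libraries (points, log2) against the GC content of its longest transcript, in each library; the black line is the median of all genes tested in bins of 4 percentage points. The points below 45% GC lie high in normoxia replicate 3 and low in normoxia replicate 1 and hypoxia replicate 2, and in hypoxia replicate 1 most points lie above the line.

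Other genes of the pathway, listed by function, showed the same absence of calls. Of 120 such genes 114 were tested by limma and 0 passed, beside 0.0976% of all genes. Neither edgeR (0.0976% of all genes called) nor DESeq2 (0.402%), which was run without that filter, called any that it tested. The median log2 fold change of the 114 was -0.10, with 74 negative, beside 49.4% of all genes. Without normoxia replicate 3 it was 0.05, with 48 negative, beside 49.9% of all genes. At an unadjusted p under 0.05 by limma there were 2 of 114, both in the small subunit list, beside 2.68% of all genes. They are given below as the largest differences of their list. Groups did not overlap for 6 of the 114 (5.26%), NOL6, IMP3 and NUFIP1 among them, beside 7.48% of all genes.

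NOL6, a processome protein, was at 1258, 799 and 989 scaled reads in normoxia and at 663, 629 and 408 in hypoxia. All hypoxia libraries lay below all normoxia libraries, and the log2 fold change was -0.84 (95% interval -1.50 to -0.17, unadjusted p = 0.0202 and adjusted p = 1.00 by limma). IMP3, which binds the U3 snoRNA with MPHOSPH10, was at 681, 635 and 533 in normoxia and at 954, 916 and 837 in hypoxia. Its groups did not overlap in the other direction, with a log2 fold change of 0.55 (95% interval 0.08 to 1.02, unadjusted p = 0.0274 and adjusted p = 1.00 by limma). Both proteins belong to the same particle and their transcripts stood on opposite sides of 0.

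In the list of further Pol I factors, 10 of 15 tested were negative, beside 49.4% of all genes. TAF1C, part of the promoter selectivity factor SL1, had means of 480.3 ± 181 and 315 ± 77.4, a log2 fold change of -0.55 (95% interval -1.35 to 0.24). TCOF1 (treacle), a partner of UBTF, had means of 2277 ± 420.0 and 1742 ± 408, a log2 fold change of -0.39 (95% interval -1.01 to 0.23). Of 39 further large subunit factors 24 were negative, with MDN1, the AAA ATPase that removes assembly factors, at 402 ± 47.0 and 278 ± 78.6, and URB2 at 287 ± 74.5 and 205 ± 57.6. Of 25 genes for snoRNP assembly and pre-rRNA nucleases 16 were negative, with the assembly factor NUFIP1 at 78.6 ± 15.2 and 56.1 ± 11.1 and the exosome subunit EXOSC6 at 866 ± 206 and 639.9 ± 196. Without normoxia replicate 3 these counts were 6 of 15, 18 of 39 and 11 of 25, beside 49.9% of all genes.

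The proteins of the finished ribosome were set beside its assembly factors. Of 82 tested cytosolic ribosomal protein genes 71 lay above 0, the median log2 fold change was 0.29, and 0 passed limma, with 6 of 82 at an unadjusted p under 0.05, beside 2.68% of all genes. Their groups did not overlap for 28 of 82 (34.1%), all 28 higher in hypoxia, beside 4.65% of the nucleolar and Pol I genes and 7.48% of all genes. These 28 were measured in the same 6 libraries and are not independent results. The median deviation of the list overlapped between the groups. It was -0.20, -0.25 and 0.04 in normoxia replicates 1 to 3 and 0.44, -0.12 and 0.16 in hypoxia replicates 1 to 3. Leaving out 1 library at a time, the median of the cytosolic list ran from 0.15 without hypoxia replicate 1, with 59 of 82 above 0, to 0.41 without hypoxia replicate 2, and it was 0.37 without normoxia replicate 3. The 75 tested mitochondrial ribosomal protein genes had a median of 0.05, with 25 negative, and ran from -0.11 without hypoxia replicate 1 to 0.25 without hypoxia replicate 2. The difference between these lists was not tested.

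**Figure D4:**
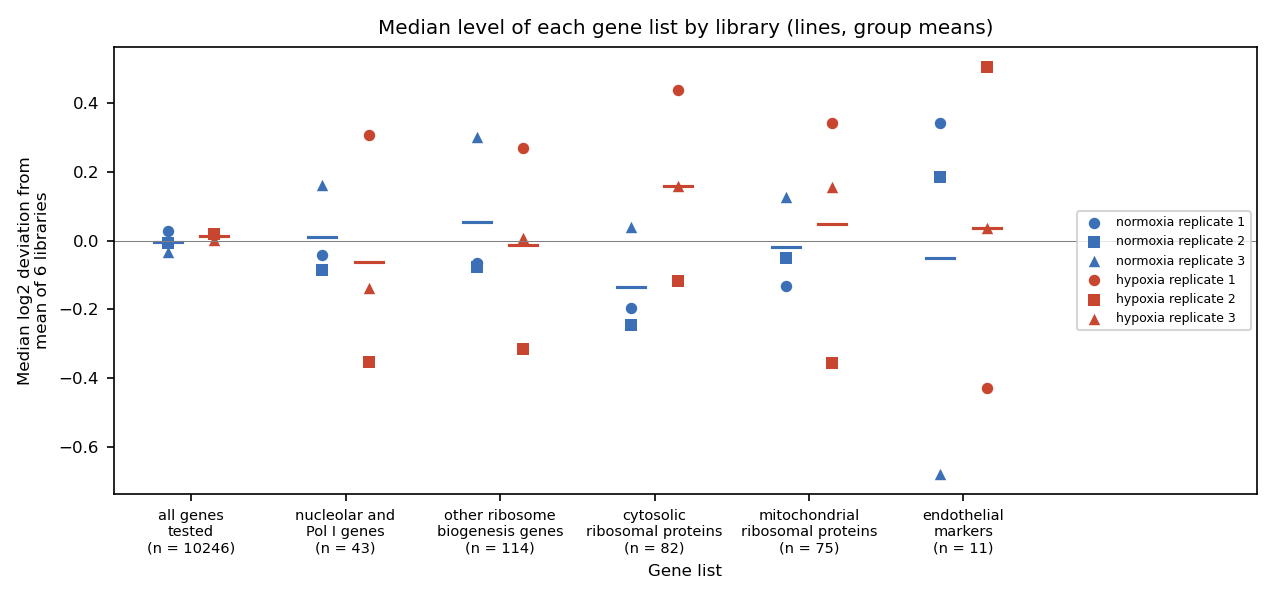
Median deviation from the mean of 6 libraries (log2) for each gene list in each library, normoxia in blue and hypoxia in red, with a line at each group mean. For the nucleolar and Pol I genes the hypoxia libraries span -0.35 to 0.31, wider than the gap between the group means. The median of the endothelial markers is lowest in normoxia replicate 3 and hypoxia replicate 1. The median over all 43 nucleolar and Pol I genes is highest in those libraries. For the 7 Pol I machinery genes alone, not drawn here, normoxia replicate 3 has the lowest median, -0.10.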

How the data were processed

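Per the labels' protocols, RNA was extracted with Trizol and a NEBNext Ultra RNA kit was used for the libraries. Per the submitters' processing notes, CASAVA, HISAT2 2.0.5 and featureCounts 1.5.0-p3 were used. The build named there is a mouse build although all gene identifiers are human, and no source used here states the annotation release or the strand setting. The deposited signal is named for FPKM, but each value is a whole number of reads divided by 1 size factor per library (100% of values whole, tolerance 0.05 of a read), so reads were recovered. The planned limma test on log2 values was kept. For it, scaled reads were divided by GENCODE 29 exon length and mean library total, which keeps the size factors. The 10246 genes reaching 1 FPKM in 3 libraries were tested with limma 3.58.1 in R 4.3.3 on log2(FPKM + 0.1), with a variance trend and robust estimates, two-sided, adjusted p 0.05. The pseudocount shrinks the fold changes of low genes. Depth was 17226736 to 18652704 reads per library. The fit was also run on simulated reads, drawn independently for each gene and without library GC trends. Such reads cannot show how the fit behaves under those trends, and the outcome is not reported here.

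No measured value enters the gene list, but the genes, lists and tests were chosen with earlier results of these data known. Values in every library are given for POLR1A, POLR1B, RRN3, UBTF, NCL, NPM1, FBL, genes whose groups did not overlap and the 2 with the largest differences in each role. From each other pathway list the 2 largest differences are named. Alternatives were 2 pseudocounts, 2 filters, TMM scaling, edgeR 4.0.16, DESeq2 1.42.0, GC removal, a replicate block and leaving out each library. All 22153 identifiers were found in GENCODE 29.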

Additional observations from a re-analysis of the deposited data

How the results depend on the processing

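No gene of the 45 and none of the 120 other pathway genes was called in any of the 15 alternative settings, which include leaving out each library. Genes not tested count here as not called: most settings tested 43 and 114 of them, and the 5 FPKM filter 32 and 64. The lowest adjusted p among the 21 genes given in every library was 0.834, reached without normoxia replicate 3. Their log2 fold changes kept their sign for 12 genes throughout, and for 9 genes the sign turned in at least 1 fit that left out a library, in 17 values in all. Leaving out libraries gave -0.16 to 0.40 for RRN3, -0.40 to 0.063 for UBTF, -0.13 to 0.80 for NPM1, -0.34 to 0.21 for NCL, -0.88 to 0.22 for NOP58, -0.86 to 0.15 for LTV1, -0.33 to 0.17 for WDR12, -0.52 to 0.60 for DDX21 and -0.32 to 0.072 for POLR1B. No sign turned under the other settings. The median log2 fold change of the tested genes ran from -0.32 to 0.07 with a library left out.

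The number of genes called in the whole table, 10 by limma, was 4 with no filter on low values, 25 with GC trends removed and 58 by DESeq2, and it ran from 1 to 24 with a library left out. The cause was not tested. Whether replicate numbers pair the samples is not known. Same-numbered normoxia and hypoxia libraries had correlations of their deviations of -0.40, 0.24 and 0.22 over genes. Of 6 samples, 2 correlated best with their own number, and the highest correlation was 0.61, normoxia replicate 1 with hypoxia replicate 2. Trends over a whole library, such as that with GC content, enter these correlations, so they cannot settle pairing. With the replicate block 19 genes were called in the whole table, and 0 of the 43 tested among the 45. Among the low genes, PPAN, LTV1 and UTP15 reach at most 177, 225 and 233 scaled reads in a library and carry more counting error, and NOP2 held 11 reads in all.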
